A study of Arabidopsis thaliana with 12 samples.

Results

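The 46 genes described here encode the nuclear part of 2 linked pathways of leaf carbon metabolism in Arabidopsis thaliana, the Calvin cycle (24 genes) and photorespiration (22 genes). They were chosen by pathway and TAIR locus, out of 25169 genes counted in the series, with earlier results of these data known. All 46 were counted, and all 46 passed the low-count filter that left 19424 genes for testing. Polyadenylated RNA of rosette leaves was sequenced in 4 groups of 3 libraries. The mutant melinoe, an EMS allele of FMN/FHY (AT4G21470), gave leaves classed as green, as green-white or as white, and the remaining libraries are from wild-type (Col-0) leaves. The labels call the libraries biological replicates and do not say which plants they came from. Every melinoe library carries the same mutant allele, and all plants were started on medium with sucrose and moved to soil under long days. Per the labels, all libraries share 22 °C, 16 h of light and 8 h of dark per day, and 75 µmol of light per square metre and second. The labels give no age or position for a leaf class, and no pale wild-type leaf was sampled. In comparisons of green-white or white leaves with wild type, genotype and leaf colour therefore cannot be told apart. Comparisons between melinoe leaf classes hold the genotype fixed.

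In the Calvin cycle, Rubisco fixes CO2 in the chloroplast stroma, the product is reduced with ATP and NADPH, and the CO2 acceptor is regenerated. Rubisco also reacts with O2, and photorespiration salvages the phosphoglycolate that results through enzymes of the chloroplast, the peroxisome and the mitochondrion, releasing CO2 and ammonia on the way. FMN/FHY joins a phosphate to riboflavin to give FMN, from which FAD is made. Some photorespiratory enzymes carry these flavins: glycolate oxidase (GOX1, GOX2) and ferredoxin-dependent glutamate synthase (GLU1) bind FMN, and mitochondrial lipoamide dehydrogenase (MTLPD1, MTLPD2) binds FAD.

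The libraries held between 25795702 and 26760055 estimated counts. Levels within a gene are given as CPM, counts scaled to the library total and adjusted by TMM factors. These factors were 0.903 to 0.929 for green and wild-type leaves, and 1.08 to 1.12 for the paler classes. A gene was called higher or lower at an edgeR quasi-likelihood adjusted p under 0.05 over all genes tested, and fold changes are on the log2 scale with their standard error (SE). On the authors' TPM scale (a level per transcript length, given as the authors' group averages with no error) the median of all tested genes lay 0.02, 0.31 and 0.44 above wild type in green, green-white and white leaves, so the direction of a small difference can depend on the scale. FMN/FHY itself had 22.1 ± 0.637 CPM in green leaves, 23.6 ± 0.116 CPM in green-white leaves and 24.4 ± 0.669 CPM in white leaves, against 23.3 ± 1.23 CPM in wild type (SD, n = 3 each), and was not called over wild type in any class (edgeR adjusted p = 0.23, 0.73 and 0.19). Between leaf classes it was called higher in white over green leaves (0.15 ± 0.05, edgeR adjusted p = 0.011). A point mutation need not alter the level of its transcript, so this level does not check the labels. As markers of other tissue, the root genes CASP1 and MYB36 together took at most 1.13e-05% of a library and were at 0 in all white libraries.

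Other marker lists moved with the leaf classes. Across all genes tested, 29.6%, 38.8% and 40.0% were called lower than wild type in green, green-white and white leaves. Called higher were 28.7%, 34.1% and 39.9%, in the same order. The 3 mesophyll antenna genes LHCB2.1, LHCB2.2 and CAB3 summed to 1.29 to 1.36% of counts in green leaves, 0.534 to 0.559% in green-white libraries and 0.248 to 0.257% in white libraries, against 1.46 to 1.49% in wild type. They are chlorophyll-binding proteins as well as mesophyll markers. The 6 vascular markers were lower than wild type, 6 of 6, in each class. They summed to 0.0228 to 0.0236% in green libraries, 0.0254 to 0.026% in green-white libraries and 0.0165 to 0.017% in white libraries. The wild-type sum was 0.0296 to 0.0313%. SUC2 made up most of it (268 CPM, with SULTR2;2 next at 34.2 CPM), so the sum does not stand for each gene. Per gene, the median log2 fold change over wild type was −1.75 (green), −1.46 (white) and −0.72 (green-white). XCP2, CESA7 and CESA8 were lowest in green leaves, whereas SUC2, SULTR2;2 and APL were lowest in white leaves. The 3 senescence markers summed to 0.0786 to 0.0808% in green libraries, 0.123 to 0.124% in green-white libraries and 0.108 to 0.111% in white libraries, against 0.0448 to 0.0465% in wild type, with 2 of 3 called higher in green leaves, 3 of 3 in green-white leaves and 3 of 3 in white leaves. Nearly all of this sum is SAG21 and SAG15, so it does not stand for SAG12. SAG12 was scarce and highest in white leaves. It had 0.643, 1.01 and 4.91 CPM in green, green-white and white leaves, against 0.66 CPM in wild type. The 4 epidermal markers summed to 0.0335 to 0.0344% in green libraries and 0.0634 to 0.0656% in wild type. In green-white and white libraries they summed to 0.0542 to 0.0547% and 0.0537 to 0.055%. They split in direction over wild type, so the sum does not stand for each gene. In green leaves 1 was called higher and 3 lower, and in each paler class 2 higher and 2 lower. The 4 guard cell markers summed to 0.00411 to 0.00544% over all libraries. Of the guard cell markers, 3 were called higher and 1 lower in green leaves, 0 and 2 in green-white leaves, and 2 and 2 in white leaves. The 3 floral markers AG, AP3 and PI summed to 0.000146 to 0.000251% in green libraries, 0.000155 to 0.000236% in green-white libraries and 0.000624 to 0.000662% in white libraries, against 0.000165 to 0.000194% in wild type. Of these, AP3 and PI were called higher in white leaves over wild type (1.59 ± 0.48 and 1.84 ± 0.15, edgeR adjusted p = 0.0032 and 1.7e-12), and AG was not called. The part of these shifts in the results below was not tested. In bulk leaves, fewer cells of a type and less RNA per cell cannot be told apart.

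Most genes of both pathways were lower in the paler leaves than in wild type, and the Calvin cycle had the lower median. In white leaves, 22 of 24 Calvin cycle genes were lower than wild type, 0 were higher and 2 were not called, with a median log2 fold change of −1.19. Among photorespiration genes 18 of 22 were lower, 1 was higher and 3 were not called, with a median of −0.82. Across all genes tested in that comparison 79.9% were called, 39.9% higher and 40.0% lower, with a median of −0.0014. In green-white leaves 24 of 24 Calvin cycle genes were lower than wild type (median −0.70), and 19 of 22 photorespiration genes were lower, 2 higher and 1 not called (median −0.48). There the background was 72.9% of genes called, 34.1% higher and 38.8% lower, with a median of −0.04.

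Green melinoe leaves differed from wild type in both directions, with medians near 0. The Calvin cycle had 5 genes higher, 13 lower and 6 not called (median −0.09), and photorespiration had 9 higher, 7 lower and 6 not called (median 0.04). The background was 58.3% called, 28.7% higher and 29.6% lower, with a median of −0.01. Members called numbered 18 of 24 and 16 of 22. Log2 fold changes in green leaves ranged from −1.17 to 0.29 in the Calvin cycle and from −0.32 to 0.47 in photorespiration. The comparisons with wild type share their wild-type libraries and are set side by side here, not tested against each other. With libraries as alike as these (common biological coefficient of variation 0.0272), differences of less than 0.1 on the log2 scale were called, and sizes are given for that reason.

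**Figure D1:**
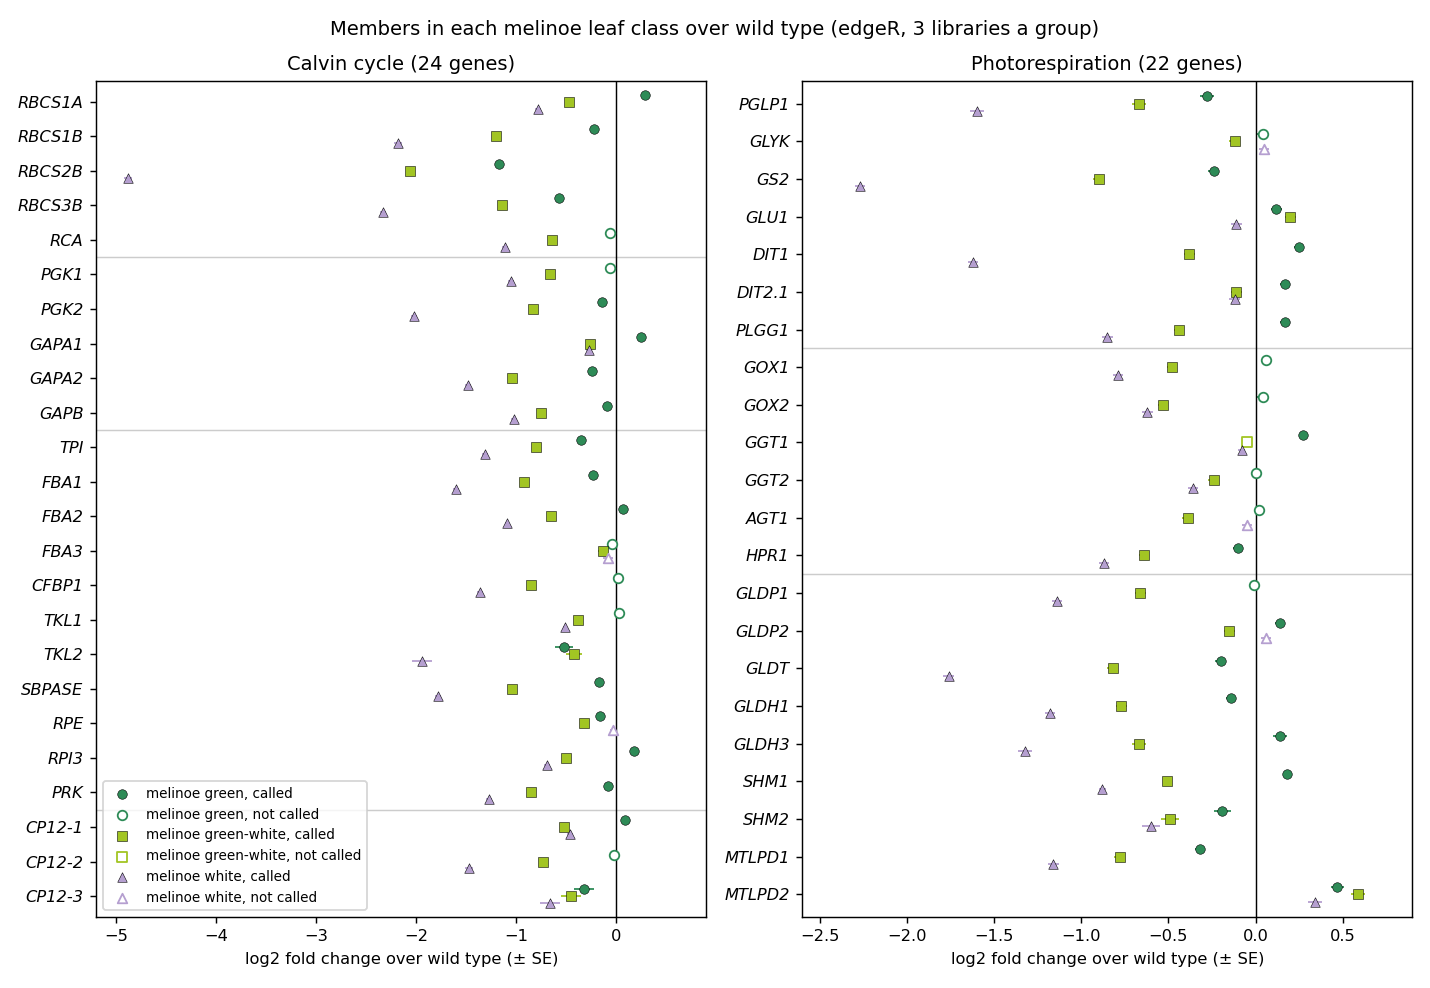
Log2 fold change over wild type (x axis, bars show the SE) of each Calvin cycle gene (left) and photorespiration gene (right, ordered from chloroplast through peroxisome to mitochondrion) in green, green-white and white melinoe leaves. Filled symbols were called by edgeR and open symbols were not; RBCS2B in white leaves lies farthest left at −4.88, and MTLPD2 is the only gene to the right of 0 in all 3 classes.

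Summed over its genes, the Calvin cycle took 5.07% ± 0.106 in green leaves, 3.76% ± 0.029 in green-white leaves and 2.85% ± 0.00826 in white leaves, against 5.23% ± 0.0512 in wild type (SD, n = 3 each). Photorespiration took 1.99% ± 0.0256 in green leaves, 1.7% ± 0.013 in green-white leaves and 1.49% ± 0.00549 in white leaves, against 1.89% ± 0.016 in wild type (SD, n = 3 each). In both pathways all white libraries lay below all green-white libraries, and these below all green and wild-type libraries. Green libraries lay just below wild type in the Calvin cycle share and just above it in the photorespiratory share, without overlap. The ratio of photorespiratory to Calvin cycle counts was 0.393 ± 0.0115 in green leaves, 0.453 ± 0.00679 in green-white leaves and 0.525 ± 0.00323 in white leaves, against 0.361 ± 0.00324 in wild type (SD, n = 3 each). Without the Rubisco small subunit genes the ratio was 0.699 ± 0.0177 in green leaves, 0.778 ± 0.00783 in green-white leaves and 0.842 ± 0.0114 in white leaves, against 0.655 ± 0.00587 in wild type (SD, n = 3 each). The order of the groups was the same with and without these genes, and no 2 groups overlapped in either ratio. A ratio of counts within a library does not depend on the scaling between libraries. It shows an unequal change of the summed counts, and was not tested.

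**Figure D2:**
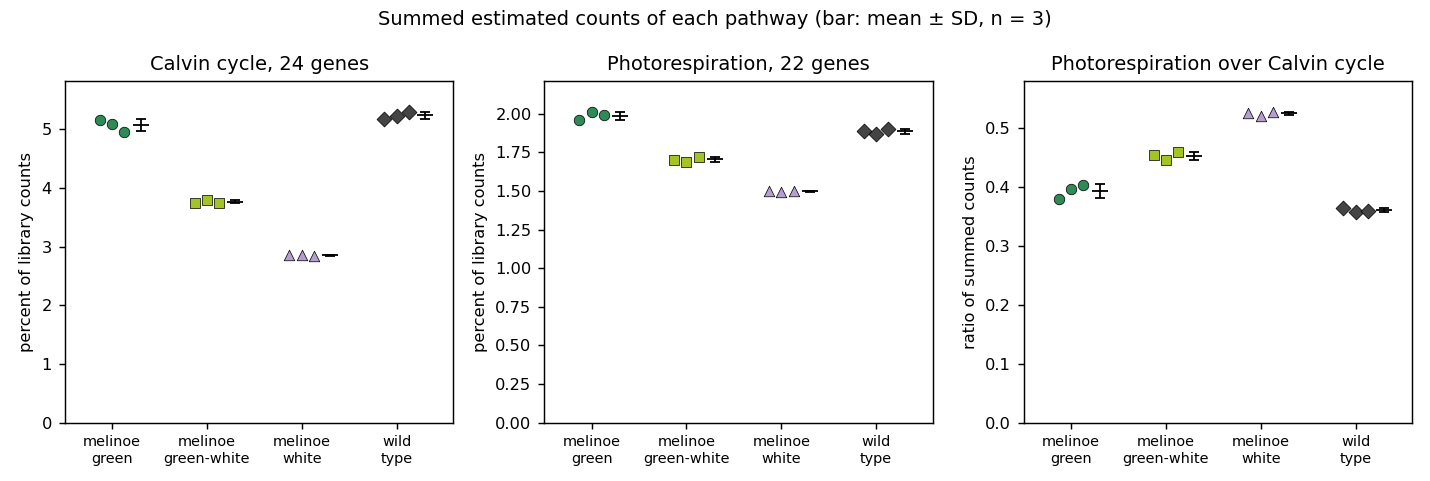
Percent of library counts in the 24 Calvin cycle genes (left) and the 22 photorespiration genes (middle), and the ratio of the summed counts (right), in each of the 12 libraries, with the mean and SD beside each group. The ratio lies at 0.521 to 0.527 in white leaves, above the 0.358 to 0.364 of wild type.

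The carbon fixation genes included the largest decrease of all 46, that of RBCS2B. The 5 genes of this group, 4 Rubisco small subunit genes (RBCS) and Rubisco activase (RCA), had a median of −2.18 in white leaves, and 5 of 5 were lower than wild type. The small subunit is encoded in the nucleus by a gene family, while the large subunit gene is plastid-encoded and not analysed here. RBCS1A (AT1G67090) lies on chromosome 1, and RBCS1B (AT5G38430), RBCS2B (AT5G38420) and RBCS3B (AT5G38410) lie side by side on the minus strand of chromosome 5 (TAIR10.1 annotation). Their coding sequences are close to identical: 96.7 to 97.3% of bases match among the 3 genes on chromosome 5, and 90.4 to 90.6% match between these and RBCS1A. The first 120 coding bases of the last exon are shown to make this visible, 5′ to 3′ on the coding strand, from the RefSeq TAIR10.1 genome at chr1:25048582-25048701, chr5:15384470-15384589, chr5:15381323-15381442 and chr5:15377621-15377740. Capitals mark bases that differ from RBCS3B, 7 in RBCS1A, 2 in RBCS2B and 0 in RBCS1B.
RBCS1A: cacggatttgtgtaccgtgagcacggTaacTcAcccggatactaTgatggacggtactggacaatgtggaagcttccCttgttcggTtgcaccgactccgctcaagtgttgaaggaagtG
RBCS1B: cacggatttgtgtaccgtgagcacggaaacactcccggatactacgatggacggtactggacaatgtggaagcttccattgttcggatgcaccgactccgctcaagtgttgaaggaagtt
RBCS2B: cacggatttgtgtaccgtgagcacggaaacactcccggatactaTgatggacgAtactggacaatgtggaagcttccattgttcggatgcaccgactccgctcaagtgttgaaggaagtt
RBCS3B: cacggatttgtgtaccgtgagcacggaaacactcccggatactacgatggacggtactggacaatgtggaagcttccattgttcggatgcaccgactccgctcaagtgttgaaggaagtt
A read inside such a stretch fits several genes, and the deposited counts of the family are fractions in nearly all libraries, so the split between the genes is an estimate.

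The family members differed widely in how far they fell. RBCS2B had 1392, 1341 and 1241 CPM in green leaves, 717, 725 and 692 CPM in green-white leaves and 100, 102 and 101 CPM in white leaves, against 2858, 3023 and 3043 CPM in wild type. The 4 groups did not overlap, and white leaves stood far below all others. Over wild type it changed by −1.17 ± 0.03 in green leaves, −2.06 ± 0.03 in green-white leaves and −4.88 ± 0.04 in white leaves on the log2 scale (edgeR adjusted p = 3.4e-24, 1.3e-30 and 5e-39), a 29.4-fold lower level in white leaves. RBCS3B had 5886, 5676 and 5550 CPM in green leaves, 3845, 3947 and 3732 CPM in green-white leaves and 1690, 1685 and 1696 CPM in white leaves, against 8476, 8356 and 8644 CPM in wild type, again with no overlap between groups. It fell by 0.57, 1.14 and 2.33 on the log2 scale in green, green-white and white leaves (edgeR adjusted p = 9.5e-19, 7e-27 and 6.8e-35). For RBCS1B the values were 1347, 1320 and 1195 CPM in green leaves, 661, 673 and 622 CPM in green-white leaves and 329, 344 and 320 CPM in white leaves, against 1408, 1528 and 1571 CPM in wild type. Its fold changes were −0.22 ± 0.04 in green leaves, −1.2 ± 0.04 in green-white leaves and −2.18 ± 0.04 in white leaves (edgeR adjusted p = 9.9e-06, 9.8e-23 and 1.8e-29), so green leaves stayed close to wild type where RBCS2B had already fallen 2.25-fold.

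RBCS1A, the most abundant of the 46 genes in TPM, had 16437, 15733 and 15441 CPM in green leaves, 9373, 9497 and 9127 CPM in green-white leaves and 7483, 7465 and 7621 CPM in white leaves, against 12529, 13100 and 13256 CPM in wild type. Green melinoe leaves thus lay above wild type, and green-white and white leaves below it, without overlap. The fold changes were 0.29 ± 0.03 in green leaves, −0.47 ± 0.03 in green-white leaves and −0.78 ± 0.03 in white leaves (edgeR adjusted p = 2.2e-11, 7.5e-17 and 7.7e-23). Within the family, RBCS1A made up 65.6% ± 0.277 in green leaves, 64.2% ± 0.205 in green-white leaves and 78.0% ± 0.24 in white leaves, against 50% ± 0.395 in wild type (SD, n = 3 each). RBCS2B made up 5.47% in green libraries, 4.89% in green-white libraries and 1.05% in white leaves, against 11.5% in wild type. Summed over all 4 genes, where the split of shared reads no longer matters, RBCS counts changed by −0.10 ± 0.03 in green leaves, −0.84 ± 0.03 in green-white leaves and −1.43 ± 0.03 in white leaves over wild type (edgeR adjusted p = 0.00099, 1.1e-23 and 4.3e-30). The 3 genes on chromosome 5 summed to −0.64 ± 0.03, −1.32 ± 0.03 and −2.61 ± 0.03 in the same order (edgeR adjusted p = 1.3e-19, 4.5e-28 and 1e-35). In the authors' average TPM, which allows genes to be compared, RBCS1A stood at 10579 in white leaves and 13350 in wild type, rank 2 and rank 3 of all genes, and RBCS2B at 214 TPM in white leaves and 4576 TPM in wild type.

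**Figure D3:**
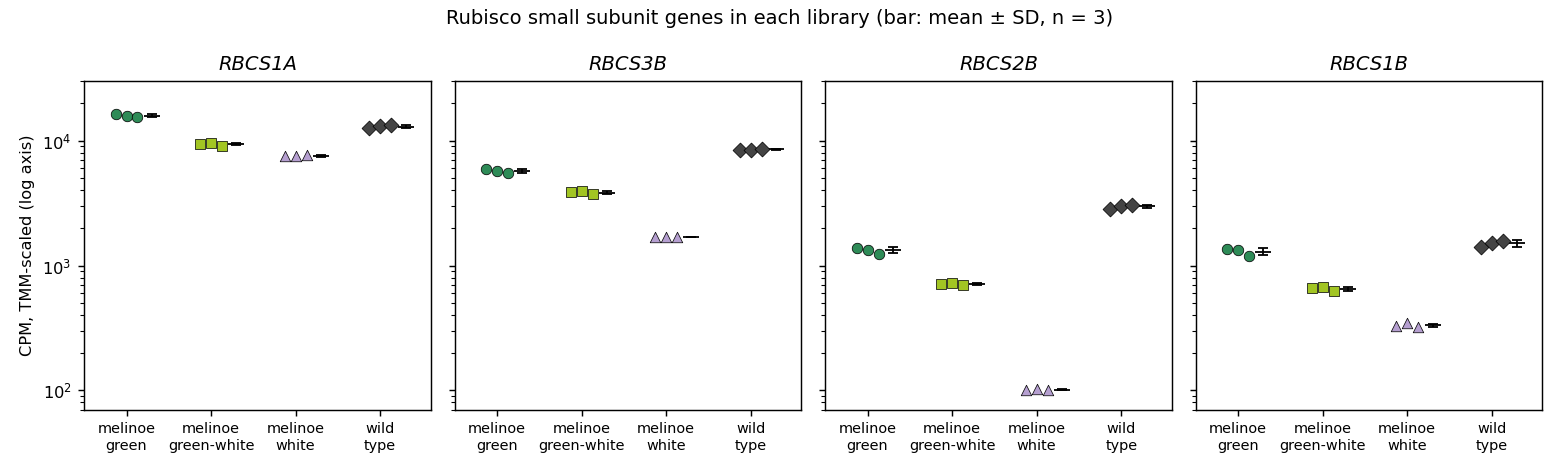
Scaled CPM (log axis) of the 4 Rubisco small subunit genes in each library, A to C from left to right within a group, with the mean and SD. RBCS1A is above wild type in green leaves, and RBCS2B drops to 100 to 102 CPM in white leaves, against 2858 to 3043 CPM in wild type.

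The regions before the RBCS1A and RBCS2B genes are shown because in white leaves over wild type these members changed least and most in the family. Each is the 250 bases upstream of the annotated gene start in RefSeq TAIR10.1, on the gene's strand, at chr1:25049668-25049917 and chr5:15382072-15382321, both minus. Capitals mark the G-box core CACGTG and the I-box core GATAAG on either strand (CTTATC on the reverse), motifs known from light-responsive plant promoters. The marked matches share no base.
RBCS1A: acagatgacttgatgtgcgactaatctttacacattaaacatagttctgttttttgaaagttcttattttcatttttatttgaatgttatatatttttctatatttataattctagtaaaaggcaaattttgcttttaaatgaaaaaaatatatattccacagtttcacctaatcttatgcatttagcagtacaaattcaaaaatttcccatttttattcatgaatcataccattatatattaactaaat
RBCS2B: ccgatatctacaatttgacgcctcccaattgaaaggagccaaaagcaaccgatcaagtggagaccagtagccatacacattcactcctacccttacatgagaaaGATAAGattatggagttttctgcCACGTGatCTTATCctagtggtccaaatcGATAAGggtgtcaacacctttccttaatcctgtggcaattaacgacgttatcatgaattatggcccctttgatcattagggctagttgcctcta
RBCS2B held 1 CACGTG and 3 GATAAG in this window, and RBCS1A neither. RBCS1B and RBCS3B also held neither in their windows of 250 bases, and changed by −2.18 and −2.33 in white leaves over wild type. With 50 bases after the start included, RBCS1B held 2 GATAAG. A link of these motifs to the levels was not tested. The annotated start of RBCS1A lies 418 bases before its start codon, against 93 bases for RBCS2B. The windows shown thus sit at different distances from the coding sequence. The nearest annotated transcript start of RBCS1A lies 175 bases before its start codon, so its window does not adjoin that start. No match says only that the letters are not in this window.

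Over all 46 genes, motifs were counted from 250 bases before to 50 bases after the annotated start, on both strands. CACGTG was present in 5 of 24 Calvin cycle windows (20.8%) and 3 of 22 photorespiration windows (13.6%), against 7.68% of the windows of 27443 protein-coding genes. GATAAG was present in 7 of 24 Calvin cycle windows (29.2%) and 2 of 22 photorespiration windows (9.09%), against 14.6% of all windows. CCAAT, a common plant promoter element, was present in 17 of 24 (70.8%) and 12 of 22 windows (54.5%), against 51.6%. These shares are a description of letters and carry no test. For some members the annotated gene start lies far before the nearest annotated transcript start. In TPI they lie 1364 and 127 bases before the start codon, and in GS2 791 and 200 bases. Such windows do not adjoin the nearest transcript start.

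RCA (AT2G39730), which clears inhibitors from Rubisco's active site, had 11486, 11574 and 10569 CPM in green leaves, 7283, 7561 and 7676 CPM in green-white leaves and 5434, 5539 and 5328 CPM in white leaves, against 11704, 11800 and 11581 CPM in wild type. Green leaves lay just below wild type and were not called (−0.06 ± 0.03, edgeR adjusted p = 0.063). Green-white leaves fell by 0.64 and white leaves by 1.11 on the log2 scale (edgeR adjusted p = 2.8e-19 and 8.8e-26). In the reduction phase 5 of 5 genes were lower than wild type in green-white leaves (median −0.75) and 5 of 5 in white leaves (median −1.05). GAPB (AT1G42970), a subunit of the NADPH-dependent glyceraldehyde phosphate dehydrogenase, had 1974, 1982 and 1887 CPM in green leaves, 1248, 1247 and 1222 CPM in green-white leaves and 1030, 1037 and 1002 CPM in white leaves, against 2068, 2086 and 2079 CPM in wild type. Its 4 groups did not overlap, and the fold changes were −0.09 ± 0.03 in green leaves, −0.75 ± 0.03 in green-white leaves and −1.02 ± 0.03 in white leaves (edgeR adjusted p = 0.0023, 3.8e-22 and 5.1e-26). The small green difference was lost without green C or any of the wild-type libraries (edgeR adjusted p = 0.058 to 0.20).

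The A subunit of the same enzyme comes from a pair of genes that moved unequally. GAPA1 (AT3G26650) changed by 0.25 ± 0.03 in green leaves, −0.26 ± 0.03 in green-white leaves and −0.27 ± 0.03 in white leaves (edgeR adjusted p = 1.1e-09, 3.5e-10 and 7.9e-11), whereas GAPA2 (AT1G12900) changed by −0.24 ± 0.03 in green leaves, −1.04 ± 0.03 in green-white leaves and −1.48 ± 0.03 in white leaves (edgeR adjusted p = 1.7e-09, 1.2e-25 and 6.2e-30). GAPA1 held 65.2% ± 0.247 in green leaves, 69.5% ± 0.23 in green-white leaves and 75.4% ± 0.558 in white leaves, against 57.1% ± 0.5 in wild type (SD, n = 3 each). The libraries of the 4 groups did not overlap in this share. Phosphoglycerate kinase, which supplies the dehydrogenase, is also encoded by a pair of genes here: in white leaves PGK1 (AT3G12780) changed by −1.05 ± 0.03 and PGK2 (AT1G56190) by −2.02 ± 0.03 (edgeR adjusted p = 5.6e-26 and 4.1e-31). PGK2 is also the less abundant copy, with 50.7 TPM in white leaves and 150 TPM in wild type, while PGK1 had 734 TPM in white leaves and 1117 TPM in wild type.

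The next group regenerates the CO2 acceptor. Of its 11 genes, 11 were lower than wild type in green-white leaves (median −0.65), and 9 were lower and 2 not called in white leaves (median −1.27). TPI (AT2G21170), the triose phosphate isomerase, gave −0.35 ± 0.03 in green leaves, −0.8 ± 0.03 in green-white leaves and −1.31 ± 0.03 in white leaves (edgeR adjusted p = 2.1e-12, 8.8e-22 and 1.6e-27). FBA2 (AT4G38970), the main plastid aldolase by TPM, gave 0.07 ± 0.02 in green leaves, −0.65 ± 0.02 in green-white leaves and −1.09 ± 0.02 in white leaves (edgeR adjusted p = 0.014, 4.1e-21 and 3.1e-27). RPI3 (AT3G04790), a ribose phosphate isomerase, gave 0.18 ± 0.03 in green leaves, −0.5 ± 0.03 in green-white leaves and −0.69 ± 0.03 in white leaves (edgeR adjusted p = 2.4e-05, 2e-14 and 3.9e-18). FBA2 and RPI3 are thus among the 5 Calvin cycle genes that were higher in green leaves, with RBCS1A, GAPA1 and CP12-1. SBPASE (AT3G55800), the sedoheptulose bisphosphatase at the branch to regeneration, had 661 ± 18.7 CPM in green leaves, 362 ± 6.4 CPM in green-white leaves and 216 ± 4.87 CPM in white leaves, against 743 ± 14.8 CPM in wild type (SD, n = 3 each). It changed by −0.17 ± 0.03 in green leaves, −1.04 ± 0.03 in green-white leaves and −1.78 ± 0.03 in white leaves (edgeR adjusted p = 5.9e-06, 1e-24 and 6.6e-31). FBA1 (AT2G21330), an aldolase, and CFBP1 (AT3G54050), the fructose bisphosphatase, fell by 1.60 and 1.36 in white leaves (edgeR adjusted p = 7.5e-29 and 5.4e-28). PRK (AT1G32060), the kinase that makes Rubisco's substrate, fell by 0.85 in green-white leaves and 1.27 in white leaves (edgeR adjusted p = 3.4e-23 and 4.7e-28). TKL2 (AT2G45290), a minor transketolase copy at 3.95 TPM in wild type, changed by −1.94 ± 0.1 in white leaves (edgeR adjusted p = 2e-17), while the major copy TKL1 (AT3G60750) changed by −0.51 ± 0.02 (edgeR adjusted p = 1.4e-18).

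RPE (AT5G61410) and FBA3 (AT2G01140) were the Calvin cycle genes with the highest fold changes in white leaves. RPE, the epimerase that also serves the pentose phosphate pathway, had 583, 566 and 556 CPM in green leaves, 510, 513 and 509 CPM in green-white leaves and 625, 623 and 615 CPM in white leaves, against 635, 638 and 633 CPM in wild type. White and wild-type libraries lay close together, and green-white libraries were the lowest. The fold changes were −0.16 ± 0.03 in green leaves, −0.32 ± 0.03 in green-white leaves and −0.03 ± 0.03 in white leaves (edgeR adjusted p = 3e-06, 2.2e-12 and 0.24), so white leaves were not called, and RPE was called higher in white than in green-white leaves (0.28 ± 0.03, edgeR adjusted p = 4.4e-11). FBA3, an aldolase of low abundance, had 74.8, 75.8 and 66.4 CPM in green leaves, 65.7, 64.5 and 72.7 CPM in green-white leaves and 69.2, 72.6 and 68.9 CPM in white leaves, against 72.7, 75.7 and 74.2 CPM in wild type. Its groups were close or overlapping, with fold changes of −0.04 ± 0.05 in green leaves, −0.13 ± 0.05 in green-white leaves and −0.08 ± 0.05 in white leaves (edgeR adjusted p = 0.52, 0.01 and 0.11). The green-white call was lost with DESeq2 (adjusted p = 0.078) and without green-white A or B or wild type B or C (edgeR adjusted p = 0.058 to 0.13 in those fits).

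The 3 CP12 genes encode small proteins that tie PRK to the dehydrogenase in the dark, and all 3 were lower than wild type in the paler classes (median −0.52 in green-white leaves and −0.66 in white leaves). CP12-1 (AT2G47400) changed by −0.52 ± 0.03 in green-white leaves and −0.46 ± 0.03 in white leaves, and CP12-2 (AT3G62410) by −0.73 ± 0.04 and −1.47 ± 0.04 (edgeR adjusted p = 5.4e-15, 8.5e-14, 9e-18 and 1.2e-25). CP12-1 was not called between the paler classes: white over green-white it gave 0.06 ± 0.03 (edgeR adjusted p = 0.11). CP12-3 (AT1G76560) was scarce, at 23.5 TPM in wild type, and changed by −0.66 ± 0.1 in white leaves (edgeR adjusted p = 6e-07).

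Photorespiration genes are described by compartment. In white leaves over wild type, 6 of 7 chloroplast genes were lower (median −0.85), 5 of 6 peroxisomal genes were lower (median −0.49), and 7 of 9 mitochondrial genes were lower and 1 higher (median −1.14). The share of library counts in the peroxisomal genes was 0.861% ± 0.0118 in green leaves, 0.754% ± 0.00317 in green-white leaves and 0.775% ± 0.00219 in white leaves, against 0.792% ± 0.00639 in wild type (SD, n = 3 each). Mitochondrial genes took 0.692% ± 0.0186 in green leaves, 0.532% ± 0.00346 in green-white leaves and 0.426% ± 0.00477 in white leaves, against 0.66% ± 0.0048 in wild type (SD, n = 3 each). The white libraries were the lowest in the mitochondrial share, also with the TMM-adjusted library size as denominator. The order of the peroxisomal share depends on the denominator. With the library total, white libraries lay just below wild type and above green-white libraries. With the TMM-adjusted size the peroxisomal share was 0.938% ± 0.022 in green leaves, 0.698% ± 0.00293 in green-white leaves and 0.696% ± 0.00529 in white leaves, against 0.874% ± 0.00863 in wild type (SD, n = 3 each), so white and green-white libraries overlapped and both lay below wild type.

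In the chloroplast the pathway starts with PGLP1 (AT5G36700), the phosphoglycolate phosphatase, which fell by 0.28, 0.67 and 1.60 in green, green-white and white leaves (edgeR adjusted p = 6.3e-07, 2.8e-15 and 4.6e-25). Its coding sequence is 100% identical to that of a second locus, AT5G36790, so reads of the 2 loci cannot be told apart. The sum of both loci gave −0.28 ± 0.03, −0.77 ± 0.03 and −1.60 ± 0.03 (edgeR adjusted p = 2.3e-10, 8.5e-22 and 2.7e-30). GLYK (AT1G80380), glycerate kinase and the last enzyme, had 271 ± 4.98 CPM in white leaves and 262 ± 5.41 CPM in wild type (SD, n = 3 each). Its log2 fold change there was 0.05 ± 0.03 and was not called (edgeR adjusted p = 0.13), and by −0.12 ± 0.03 in green-white leaves (edgeR adjusted p = 0.00038).

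Photorespiratory ammonia is reassimilated in the chloroplast. GS2 (AT5G35630), the chloroplast glutamine synthetase, had 1434, 1430 and 1402 CPM in green leaves, 906, 879 and 908 CPM in green-white leaves and 350, 348 and 342 CPM in white leaves, against 1639, 1692 and 1697 CPM in wild type. The 4 groups did not overlap, and white leaves fell by 2.27 on the log2 scale, a 4.83-fold lower level (edgeR adjusted p = 1.2e-34), after −0.90 ± 0.03 in green-white leaves and −0.24 ± 0.03 in green leaves (edgeR adjusted p = 2.6e-24 and 1.6e-09). GLU1 (AT5G04140), the glutamate synthase that acts with it and an FMN enzyme, had 1534, 1728 and 1715 CPM in green leaves, 1737, 1758 and 1781 CPM in green-white leaves and 1411, 1420 and 1406 CPM in white leaves, against 1584, 1443 and 1550 CPM in wild type. Green A was lower than the other green libraries and fell among the wild-type values, and white leaves lay just below wild type. GLU1 changed by 0.12 ± 0.03 in green leaves, 0.2 ± 0.03 in green-white leaves and −0.11 ± 0.03 in white leaves (edgeR adjusted p = 0.0033, 3.7e-06 and 0.0041). The white call was lost without wild type A or wild type C (edgeR adjusted p = 0.056 to 0.10). The transporters that exchange organic acids for this cycle also differed: DIT1 (AT5G12860) changed by −1.62 ± 0.03 in white leaves, DIT2.1 (AT5G64290) by −0.12 ± 0.03, and the glycolate and glycerate transporter PLGG1 (AT1G32080) by −0.85 ± 0.03 (edgeR adjusted p = 6.2e-30, 0.002 and 2.5e-22). In green leaves 3 of 3 of them were above wild type, by 0.17 to 0.25.

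In the peroxisome, the glycolate oxidases fell in the paler classes. GOX1 (AT3G14420) had 1778, 1827 and 1691 CPM in green leaves, 1197, 1234 and 1219 CPM in green-white leaves and 976, 986 and 972 CPM in white leaves, against 1645, 1707 and 1723 CPM in wild type. GOX2 (AT3G14415) had 888, 904 and 832 CPM in green leaves, 581, 584 and 594 CPM in green-white leaves and 574, 548 and 536 CPM in white leaves, against 835, 868 and 843 CPM in wild type. Green and wild-type libraries overlapped in both genes, and the paler classes lay below them. GOX1 changed by 0.06 ± 0.03 in green leaves, −0.48 ± 0.03 in green-white leaves and −0.79 ± 0.03 in white leaves (edgeR adjusted p = 0.056, 4.4e-16 and 4.7e-22), and GOX2 by 0.04 ± 0.03 in green leaves, −0.53 ± 0.03 in green-white leaves and −0.62 ± 0.03 in white leaves (edgeR adjusted p = 0.23, 2.6e-16 and 3.9e-18). The genes share 92.0% of coding bases and their counts are fractions, and their sum gave 0.06 ± 0.03, −0.49 ± 0.03 and −0.73 ± 0.03 (edgeR adjusted p = 0.081, 8.4e-17 and 1.9e-21).

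Aminotransferases supply glycine in the peroxisome. GGT1 (AT1G23310), the glutamate:glyoxylate aminotransferase, gave 0.27 ± 0.02 in green leaves, −0.05 ± 0.02 in green-white leaves and −0.08 ± 0.02 in white leaves (edgeR adjusted p = 1e-11, 0.052 and 0.0014), and its minor copy GGT2 (AT1G70580) gave −0.36 ± 0.03 in white leaves (edgeR adjusted p = 3.6e-11). AGT1 (AT2G13360), the serine:glyoxylate aminotransferase, was lowest in green-white leaves, with 2157 ± 67.2 CPM in green leaves, 1624 ± 17.1 CPM in green-white leaves and 2053 ± 9.16 CPM in white leaves, against 2128 ± 7.17 CPM in wild type (SD, n = 3 each). It was called lower in green-white leaves (−0.39 ± 0.03, edgeR adjusted p = 5e-15) and not called in white leaves (−0.05 ± 0.03, edgeR adjusted p = 0.059). HPR1 (AT1G68010), the hydroxypyruvate reductase of the peroxisome, fell by 0.64 in green-white leaves and 0.87 in white leaves (edgeR adjusted p = 2.6e-19 and 6.4e-23). In average TPM, AGT1 stood at 2115 in white leaves, against 1604 in wild type. GGT1 stood at 1949 TPM in white leaves, against 1520 TPM in wild type, so both were above wild type on that scale.

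The mitochondrial step joins glycine decarboxylase, a complex of P, T, H and L proteins, to serine hydroxymethyltransferase. GLDT (AT1G11860), the T protein, had 654, 644 and 609 CPM in green leaves, 417, 415 and 408 CPM in green-white leaves and 217, 226 and 208 CPM in white leaves, against 718, 756 and 723 CPM in wild type, and its 4 groups did not overlap. It fell by 0.20, 0.82 and 1.76 on the log2 scale in green, green-white and white leaves (edgeR adjusted p = 1.2e-06, 5.8e-21 and 1.4e-29). The H proteins GLDH1 (AT2G35370) and GLDH3 (AT1G32470) gave −1.18 ± 0.03 and −1.32 ± 0.04 in white leaves (edgeR adjusted p = 8.3e-26 and 1.4e-24). SHM1 (AT4G37930), the main hydroxymethyltransferase, gave 0.18 ± 0.02 in green leaves, −0.51 ± 0.02 in green-white leaves and −0.88 ± 0.02 in white leaves (edgeR adjusted p = 1.6e-07, 1.2e-18 and 5.1e-25). SHM2 (AT5G26780), a minor copy at 17.9 TPM in wild type where SHM1 has 1707 TPM, gave −0.6 ± 0.05 in white leaves (edgeR adjusted p = 1.3e-12).

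The P and L proteins are each encoded by a pair of genes whose copies moved unequally. GLDP1 (AT4G33010) had 1939, 2163 and 2138 CPM in green leaves, 1297, 1313 and 1371 CPM in green-white leaves and 953, 939 and 963 CPM in white leaves, against 2117, 2057 and 2108 CPM in wild type. GLDP2 (AT2G26080) had 591, 681 and 672 CPM in green leaves, 529, 534 and 527 CPM in green-white leaves and 611, 602 and 619 CPM in white leaves, against 597, 578 and 587 CPM in wild type. In each gene, green A was the lowest green library. GLDP1 fell in green-white leaves and white leaves, and white GLDP2 libraries lay just above wild type. GLDP1 changed by −0.01 ± 0.03 in green leaves, −0.66 ± 0.03 in green-white leaves and −1.14 ± 0.03 in white leaves (edgeR adjusted p = 0.81, 2.2e-18 and 7.7e-25), and GLDP2 by 0.14 ± 0.03 in green leaves, −0.15 ± 0.03 in green-white leaves and 0.06 ± 0.03 in white leaves (edgeR adjusted p = 0.00081, 0.00034 and 0.14). Without green A, GLDP1 in green leaves was 0.07 above wild type and called (edgeR adjusted p = 0.025). GLDP1 made up 76.3% ± 0.326 in green leaves, 71.5% ± 0.679 in green-white leaves and 60.9% ± 0.0405 in white leaves, against 78.1% ± 0.107 in wild type (SD, n = 3 each).

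The L protein, lipoamide dehydrogenase, is shared with other mitochondrial complexes such as pyruvate dehydrogenase. MTLPD1 (AT1G48030) had 317, 318 and 307 CPM in green leaves, 230, 223 and 230 CPM in green-white leaves and 174, 173 and 177 CPM in white leaves, against 398, 392 and 384 CPM in wild type. MTLPD2 (AT3G17240) had 78.3, 78.4 and 73.8 CPM in green leaves, 83.4, 81.5 and 84 CPM in green-white leaves and 73.9, 70.4 and 66.3 CPM in white leaves, against 56.9, 56.4 and 52.7 CPM in wild type. The copies moved in opposite directions, with all melinoe libraries below wild type in MTLPD1 and above it in MTLPD2. MTLPD1 changed by −0.32 ± 0.03 in green leaves, −0.78 ± 0.03 in green-white leaves and −1.16 ± 0.03 in white leaves (edgeR adjusted p = 2.1e-11, 1.4e-21 and 3e-26). MTLPD2 changed by 0.47 ± 0.04 in green leaves, 0.59 ± 0.04 in green-white leaves and 0.34 ± 0.04 in white leaves (edgeR adjusted p = 2.7e-11, 5.6e-14 and 1e-08) and was the only member called higher in white leaves. MTLPD1 made up 80.3% ± 0.23 in green leaves, 73.3% ± 0.0874 in green-white leaves and 71.4% ± 1.27 in white leaves, against 87.6% ± 0.282 in wild type (SD, n = 3 each).

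**Figure D4:**
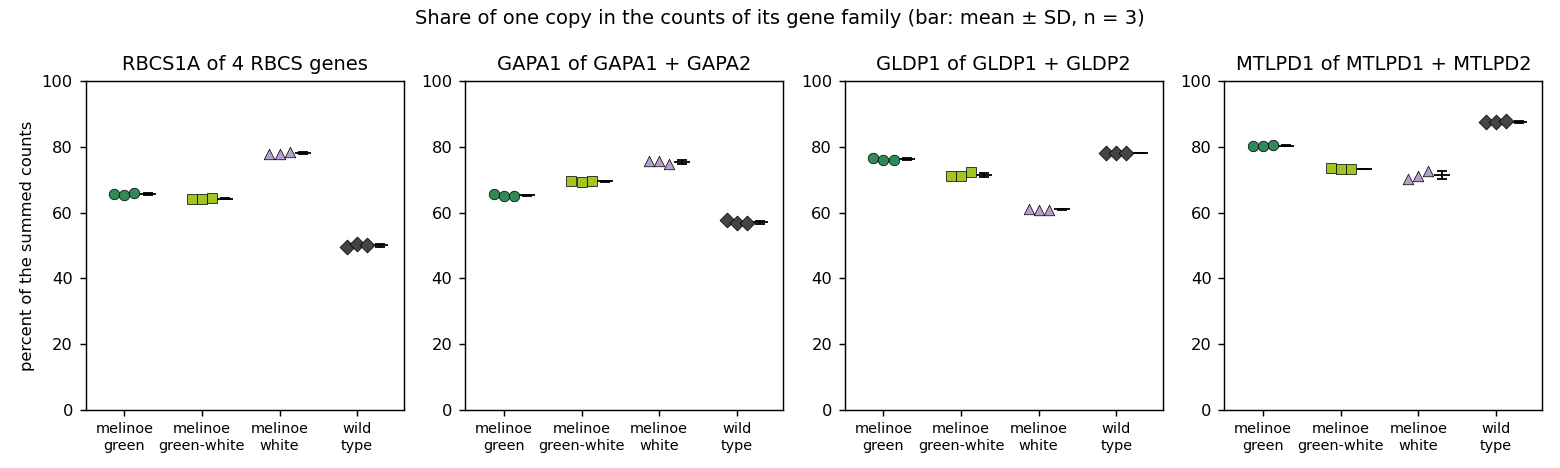
Percent of the summed counts of a gene family held by RBCS1A (of 4 genes), GAPA1, GLDP1 and MTLPD1 (each of 2 genes) in each library, with the mean and SD. RBCS1A and GAPA1 take a larger share in white leaves (78.0% and 75.4%) than in wild type, and GLDP1 and MTLPD1 a smaller share (60.9% and 71.4%, against 78.1% and 87.6%).

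The 5 flavin enzymes had no common direction over wild type. All 5 were called lower in white leaves than in the other melinoe classes (median −0.66 over green and −0.31 over green-white leaves). Of all photorespiration genes, 21 of 22 were lower over green leaves (median −0.81) and 16 of 22 over green-white leaves (median −0.32). Among all genes tested, 36.3% and 30.8% were called lower in these comparisons. The call over green leaves was lost for MTLPD2 without white C (edgeR adjusted p = 0.063), and that over green-white leaves for GOX2 without green-white C, white B or white C (edgeR adjusted p = 0.059 to 0.12). Over wild type, 2 were called higher and 1 lower in green leaves (median 0.06), 2 higher and 3 lower in green-white leaves (median −0.48), and 1 higher and 4 lower in white leaves (median −0.62). Their summed share of library totals was 0.431% ± 0.0121 in green leaves, 0.418% ± 0.00341 in green-white leaves and 0.355% ± 0.00244 in white leaves, against 0.409% ± 0.00534 in wild type (SD, n = 3 each). With the TMM-adjusted library size as denominator it was 0.469% ± 0.0146 in green leaves, 0.387% ± 0.00315 in green-white leaves and 0.318% ± 0.00375 in white leaves, against 0.451% ± 0.00459 in wild type (SD, n = 3 each), so green-white leaves lay above wild type in the first measure and below it in the second. The list was described by counts and medians, and no test compares it with the other photorespiration genes.

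**Figure D5:**
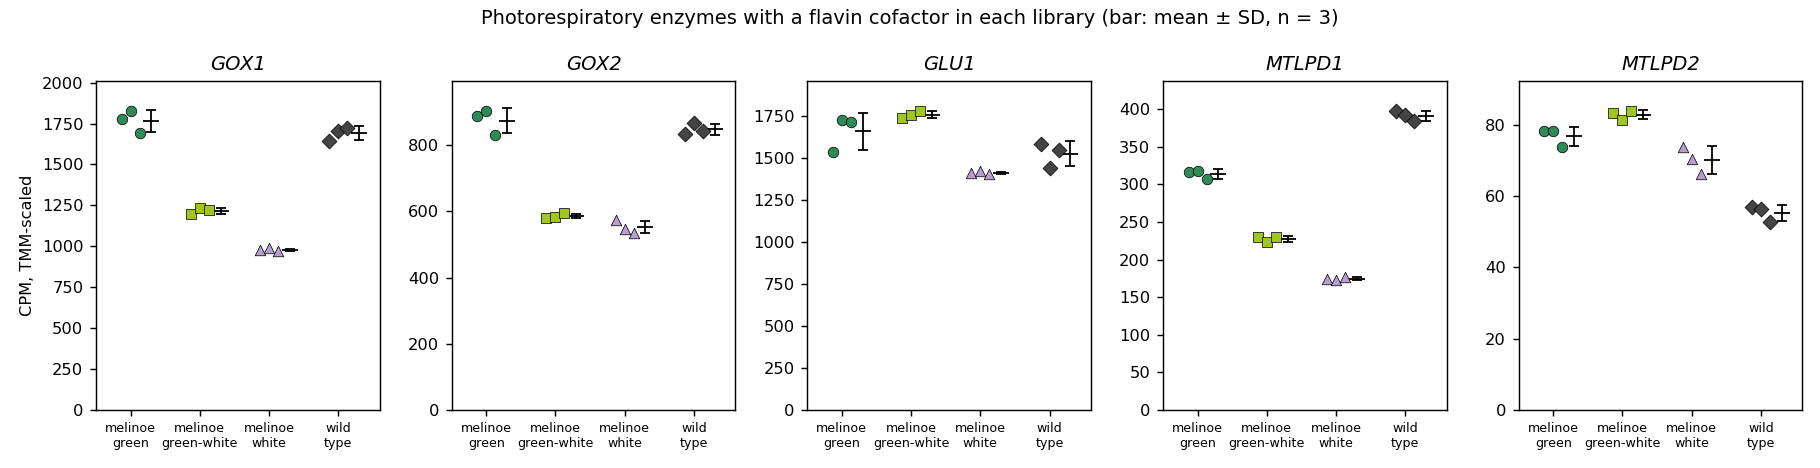
Scaled CPM of the 5 photorespiratory flavin enzyme genes in each library, A to C from left to right within a group, with the mean and SD. GOX1, GOX2 and MTLPD1 are lower in green-white leaves and white leaves than in wild type, MTLPD2 is higher in every melinoe library, and GLU1 is highest in green-white leaves.

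Within melinoe, where all leaves carry the allele, neighbouring leaf classes were compared. Green-white over green is called the first step here, and white over green-white the second. The words name contrasts and no order in time, since the labels give no age or position. Both steps share the green-white libraries, and a mix of green and white tissue in those leaves was not tested. For the first step, 21 of 24 Calvin cycle genes were lower, 0 higher and 3 not called (green-white over green, median −0.66), and 20 of 22 photorespiration genes were lower and 2 higher (median −0.50). The background of that comparison was 59.5% called, 29.6% higher and 29.9% lower. For the second step, 19 of 24 Calvin cycle genes were lower, 1 higher and 4 not called (white over green-white, median −0.44), and 16 of 22 photorespiration genes were lower, 3 higher and 3 not called (median −0.32), with 64.3% of all genes called, 33.5% higher and 30.8% lower. White over green, the counts were 22 lower, 1 higher and 1 not called for the Calvin cycle (median −1.12) and 21 lower, 0 higher and 1 not called for photorespiration (median −0.81), with 72.6% of all genes called, 36.3% in either direction.

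Both steps were called lower in 18 of 24 Calvin cycle genes and 14 of 22 photorespiration genes, with 10.5% of all genes tested called lower in both. RPE in the Calvin cycle, and AGT1, GLDP2 and GLYK in photorespiration, were lower in the first step and higher in the second. AGT1 was the largest of these rises, at 0.34 ± 0.03 in white over green-white leaves (edgeR adjusted p = 3.1e-13). GLU1 and MTLPD2 took the opposite course, higher in the first step (0.08 ± 0.03 and 0.11 ± 0.04, edgeR adjusted p = 0.035 and 0.018) and lower in the second (−0.32 ± 0.03 and −0.24 ± 0.04, edgeR adjusted p = 1.7e-09 and 3.6e-06). The first of these steps was lost under upper-quartile scaling for both genes (edgeR adjusted p = 0.14 and 0.073). In some genes the second step was the larger one, a difference that was not tested: DIT1 gave −0.63 ± 0.03 in the first and −1.24 ± 0.03 in the second, GS2 −0.66 ± 0.03 and −1.37 ± 0.03, and RBCS2B −0.9 ± 0.03 and −2.81 ± 0.04, all called (edgeR adjusted p = 6.8e-19, 3.7e-26, 2.9e-20, 2.7e-28, 5.7e-21 and 6.7e-33).

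Of 22 further Calvin cycle genes (minor isoforms, thioredoxins, carbonic anhydrases, exporters and Rubisco assembly factors), 10 were higher, 9 lower and 3 not called in white leaves over wild type (median 0.06), against 5 higher and 16 lower in green-white leaves (median −0.24) and 8 higher and 7 lower in green leaves (median 0.0038). Among all genes tested, 39.9% were called higher and 40.0% lower in white leaves. The shares were 34.1% and 38.8% in green-white leaves, and 28.7% and 29.6% in green leaves. In white and green leaves the counts of this list lay near those of all genes. The 4 with the smallest adjusted p in white leaves were the carbonic anhydrases CA1 (−3.46 ± 0.03) and CA2 (−1.91 ± 0.04), the triose phosphate exporter TPT (−1.07 ± 0.02) and the thioredoxin TRXF1 (−1.42 ± 0.03), all lower (edgeR adjusted p = 1.7e-38, 2.2e-29, 2.5e-27 and 7.8e-27). Among those higher in white leaves were the 4 chloroplast chaperonin genes on the list, named here after their values were seen: CPN60A1 (0.71 ± 0.03), CPN60B1 (0.71 ± 0.03), CPN20 (0.46 ± 0.03) and CPN60B2 (0.14 ± 0.04; edgeR adjusted p = 4e-19, 3.6e-21, 2.8e-14 and 0.00048). All 4 stayed above wild type under every scaling tried, and CPN60B2 was called in 4 of 5 of these fits. Chaperonins fold Rubisco subunits among other proteins.

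Of 16 further photorespiration genes, 3 were higher, 11 lower and 2 not called in white leaves (median −0.67), 4 higher and 11 lower in green-white leaves (median −0.39), and 2 higher and 8 lower in green leaves (median −0.18). The 16 include AT5G36790, the locus whose reads cannot be told apart from those of PGLP1, so it is not independent of the 46 genes. PMDH2, a peroxisomal malate dehydrogenase, changed by −0.97 ± 0.03, HPR2, a cytosolic hydroxypyruvate reductase, by −0.73 ± 0.04, and BOU, a mitochondrial carrier needed for photorespiration, by −0.68 ± 0.04 in white leaves (edgeR adjusted p = 1.9e-25, 8.4e-17 and 3.9e-15). Of 14 cytosolic counterparts of these enzymes, 2 were higher, 10 lower and 2 not called in white leaves, with a median of −0.17. FBA5 (−1.06 ± 0.03) and SHM4 (−0.82 ± 0.04) were lower in white leaves, and the aldolase FBA6 was higher (0.38 ± 0.03, edgeR adjusted p = 2.1e-24, 1.6e-17 and 1.5e-11). The background over wild type was 39.9% of all genes called higher and 40.0% lower in white leaves. It was 34.1% and 38.8% in green-white leaves, and 28.7% and 29.6% in green leaves. Lists were described by their counts, and their difference from the 46 genes was not tested.

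Between genes, levels per length spanned a wide range. In wild type the Calvin cycle ran from 3.95 TPM in TKL2 to 13350 TPM in RBCS1A, and photorespiration from 17.9 TPM in SHM2 to 1707 TPM in SHM1. In white leaves the highest photorespiratory level was that of AGT1, 2115 TPM, and SHM1 had 1265 TPM. On the log2 TPM scale (pseudocount 0.1) the median over wild type in white leaves was −0.74 for the Calvin cycle and −0.38 for photorespiration. Relative to the median of all genes tested on that scale these are −1.18 and −0.82. For 3 of 24 Calvin cycle genes and 8 of 22 photorespiration genes the white TPM was above wild type, so the direction of genes near 0 in the fit depends on the scale used. Among these are GAPA1, GGT1, GLU1 and DIT2.1, which the fit called lower in white leaves. The annotated spans of 13 of the 46 genes overlap another gene, 10 of them on the opposite strand, RCA, PRK and GLU1 included. The libraries were strand-specific per the labels' protocols, and the strand setting of the counting is not given in the sources used here, so reads of such neighbours cannot be told apart with certainty.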

How the data were processed

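Estimated counts per gene and library (RSEM-like, not all whole) and TPM were used as deposited by the authors in 3 tables, each with 1 leaf class and wild type. Of the values 92.8% were whole (tolerance 1e-06), and TPM was taken only from the authors' group averages, since per the file headers the libraries carry letters that the labels do not tie to samples. For that reason 18 further columns of single libraries were not used. Per the series' design text, reads were cleaned with SOAPnuke 1.5.2 and aligned with HISAT2 2.0.4. The submitters' processing notes name Bowtie2, RSEM, DESeq2 and TAIR10, without versions or roles. Nothing on the annotation or the strand setting of the counting is given in the sources used here.

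The tables were joined over 25169 genes, of which 23214 stood in all 3, and 9750 missing values were set to 0. Counts were rounded and tested with edgeR 4.0.16 (R 4.3.3; TMM factors, filterByExpr, quasi-likelihood test on group means over all 12 libraries), with Benjamini-Hochberg adjustment over 19424 genes and a threshold of 0.05. The procedure was run on simulated counts in which 50 genes at each fold size were changed in white leaves. It recovered 64% of 1.25-fold and 94% of 1.5-fold changes, with 0.059% of unchanged genes called. Few genes were changed there and all shared a common spread, so scaling under broad changes was not tested. Alternatives were RLE and upper-quartile factors, DESeq2 1.42.0, the 6 libraries of a comparison alone, no filter, each library left out in turn, and, added after seeing the data, gene families summed. Where a library was left out, the shared spread of all groups was used. Libraries of a group differed by more than sampling noise (chi-square per gene 1.55 to 3.75). If the replicates share plants, p-values measure only the spread between these libraries.

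Members and lists were chosen with earlier results of these data known. Any member could be named. Values of every library were given for the RBCS genes, RCA, GAPB, the 2 highest and 2 lowest genes of each pathway in white leaves, the flavin enzymes and the P protein genes, and companion genes were named by the 4 smallest adjusted p per list and comparison, with exceptions stated. Positions, promoters and coding identity come from RefSeq TAIR10.1. Gene IDs of the tables were matched to TAIR loci through RefSeq, and all matched.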

Additional observations from a re-analysis of the deposited data

Results flagged for a closer look

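Several members were called on opposite sides of wild type in different leaf classes, with the difference between those classes also called by edgeR. The values below are log2 fold changes of the paler class over the other class. In the Calvin cycle these were higher than wild type in green leaves and lower in both paler classes. RBCS1A gave −0.77 in green-white over green leaves and −1.08 in white over green leaves. For GAPA1 the same contrasts gave −0.51 and −0.53, for FBA2 −0.72 and −1.16, for RPI3 −0.68 and −0.87, and for CP12-1 −0.62 and −0.55. FBA2 and CP12-1 were not called in green leaves under upper-quartile scaling.

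In photorespiration the same course was taken by GLDH3, with −0.80 in green-white over green and −1.46 in white over green leaves, by SHM1 with −0.69 and −1.05, and by the transporters DIT1 with −0.63 and −1.88, DIT2.1 with −0.28 and −0.29 and PLGG1 with −0.60 and −1.02. GGT1 was above wild type in green leaves and below it in white leaves, with −0.35 in white over green. GLDP2 was above wild type in green leaves and below it in green-white leaves, with −0.29 in green-white over green. GLU1 was above wild type in green and green-white leaves and below it in white leaves, with −0.23 in white over green and −0.32 in white over green-white.

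On the authors' average TPM scale some of these were not below wild type. GAPA1 stood at 1441 TPM in green-white leaves and 1519 TPM in white leaves, against 1349 TPM in wild type, and DIT2.1 at 86.6 and 91.6 TPM, against 73.1 TPM in wild type. GLDP2 stood at 188 TPM in green-white leaves, against 164 TPM in wild type. In white leaves GGT1 stood at 1949 TPM and GLU1 at 384 TPM, against 1520 and 307 TPM in wild type. For these 5 genes the place on opposite sides of wild type therefore depends on the scale, and for the other members listed the called directions were the same on both scales. Among those others, CP12-1 in white leaves was nearly level in TPM, at 1788 against 1790 in wild type. DIT1 in green-white leaves stood at 232 TPM, against 236 TPM in wild type. The averages carry no error, so TPM does not settle the side of wild type in these cases.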

How the results depend on the processing

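No paired analysis was possible because the libraries carry letters and the labels numbers, and nothing ties one to the other. Medians kept their sign in all fits for the Calvin cycle (−1.27 to −1.17 in white, −0.77 to −0.66 in green-white and −0.13 to −0.05 in green leaves, over wild type) and for photorespiration in the paler classes (−0.90 to −0.80 and −0.55 to −0.44), but not in green leaves (−0.0029 to 0.10). Of 276 member values, 274 kept direction and call with RLE factors, 255 with upper-quartile factors, 270 with DESeq2, 268 with the 6 libraries of a comparison alone and 273 without the filter. No called value reversed in these 5 fits. Upper-quartile factors moved the median of all genes to −0.05, −0.11 and −0.08 in green, green-white and white leaves over wild type. They gave 3 Calvin cycle genes higher in green leaves (5 with TMM) and 0 photorespiration genes higher in green-white over green leaves (2 with TMM). Uncalled values that changed sign under them were, in green leaves over wild type, CFBP1 −0.02, TKL1 −0.02, GOX2 −0.002, GGT2 −0.04, AGT1 −0.02 and GLYK −0.0039, in white leaves over wild type GLDP2 −0.02 and GLYK −0.03, and in white over green leaves GLYK −0.03. GLDP1 in green leaves gave 3e-06 with DESeq2 and 0.0039 with 6 libraries. Photorespiration genes higher in white leaves numbered 2 with DESeq2 and 2 with 6 libraries (1 with all 12). With 1 library left out, they numbered 1 to 3, with the count moved by leaving out green A, B or C or wild type A. Those higher in green-white over green leaves numbered 0 to 2, moved by green A or C or green-white B or C. Calvin cycle genes higher in white over green-white leaves numbered 1 to 2, moved by green-white B or C. Uncalled values crossed 0 for RCA (−0.06 to 0.01), PGK1 (−0.06 to 0.0027), FBA3 (−0.04 to 0.06), CP12-2 (−0.03 to 0.07) and GLDP1 (−0.01 to 0.07) in green leaves over wild type, GLYK in white over green (−0.03 to 0.02), and GAPA1 (−0.03 to 0.01) and DIT2.1 (−0.05 to 0.01) in white over green-white leaves. CP12-3 in green-white over green leaves ran from −0.24 to 0.01. Small calls were lost for PRK (−0.08 to −0.03; without green A or B or any wild-type library), HPR1 (−0.10 to −0.04; green B or C or any wild-type library) and CP12-3 (−0.36 to −0.21; green C or wild type C) in green leaves over wild type, and for DIT2.1 (−0.13 to −0.07; green-white B or any wild-type library) in green-white leaves over wild type. Between leaf classes they were lost for GLU1 (0.03 to 0.11; green A, green-white B or C) and MTLPD2 (0.08 to 0.13; green C or green-white C) in green-white over green, MTLPD2 (−0.17 to −0.09; white C) and GLDP2 (−0.16 to −0.06; green B or C, white A or B) in white over green, and GOX2 (−0.11 to −0.06; green-white C, white B or C) in white over green-white leaves. With the TMM-adjusted library size as denominator the pathways' shares of counts were 5.52%, 3.48% and 2.56% in green, green-white and white leaves, against 5.77% in wild type (Calvin cycle), and 2.17%, 1.58% and 1.34%, against 2.08% (photorespiration), in the same order of groups as with library totals. Causes were not tested. The SE was largest for the scarce genes TKL2 and CP12-3, where depth limits most.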
